A study of Caenorhabditis elegans with 6 samples.

Results

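The neuropeptide genes of C. elegans and the genes that process and release their products were examined on 6 arrays comparing worms grown on a low dose mixture (LDM) of chlorpyrifos (CPF) and diazinon (DZN) with control worms. Members were chosen by symbol: every flp-, ins- and nlp- gene, without nlp-24, nlp-25 and nlp-27 to nlp-34, together with egl-3, egl-21, sbt-1, ida-1 and unc-31. These were 143 genes, made up of 31 flp, 39 ins and 68 nlp genes and 5 genes of processing and release, and 107 of them had a probe matched among the 18889 genes on the array. Worms of the wild-type strain N2 were raised from eggs for 72 h at 16 °C, to the L3/L4 stage, on agar seeded with E. coli OP50. LDM plates held 0.5 mg/l CPF with 1 mg/l DZN in acetone according to the methods, whereas the unit in the sample labels is mg/ml for 0.5 and 1 alike. Control plates held acetone alone. Each sample pooled the worms of 4 petri dishes, and the methods describe 6 independent biological replicates. LDM and control RNA were hybridized together on each array, with the LDM in Cy5 on 3 arrays and in Cy3 on the other 3.

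Neuropeptides are made as longer precursors in neurons and some other cells. The proprotein convertase EGL-3 cuts many of these precursors at basic residues, with the help of the 7B2-type chaperone SBT-1. The carboxypeptidase E homolog EGL-21 trims the basic residues left at the ends. The peptides are stored in dense core vesicles, where IDA-1, the homolog of the vertebrate protein IA-2, sits in the membrane, and are released with the help of UNC-31, the CAPS homolog. flp genes encode FMRFamide-like peptides, ins genes encode insulin-like peptides, several of which act on the receptor DAF-2, and nlp genes encode the remaining neuropeptide-like proteins. CPF and DZN are organophosphorus pesticides (OPs), which inhibit acetylcholinesterase. The arrays held RNA of whole worms, so fewer cells of a type and less RNA per cell cannot be told apart.

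On the whole array, 7989 genes could be tested, of which limma placed 25 higher and 5 lower with the LDM at an adjusted p under 0.05. cyp-35A3, a cytochrome P450 gene, had log2 ratios of LDM over control between 2.76 and 3.71 on the 6 arrays, so that all 6 read in the labelled direction for this gene. LDM in Cy5 replicate 2 and LDM in Cy5 replicate 3 ran against each other over the unmarked gene probes (r = -0.35, and -0.23 over all gene probes, across genes that are not independent replicates). The dyes are given in the labels, and the direction of both arrays was kept. Arrays with the LDM in Cy5 were dimmer, with 37.6 to 41.9% of gene spots left unmarked by the image software, against 56.5 to 61.4% with the LDM in Cy3. What the marks stand for is not given in the sources used here, and spots with the value 3 were taken as unmarked. The control extracts of LDM in Cy5 replicate 3 and LDM in Cy3 replicate 1 carry the same code in the scanner output, so these 2 arrays may share a control sample. Genes of other tissues and stages also varied between arrays. Vitellogenin genes (5 of 6 tested), which encode yolk proteins, had medians of -2.93 to -0.72 on 5 arrays and of 2.44 on LDM in Cy3 replicate 3. Medians of 13 major sperm protein genes were lowest on LDM in Cy5 replicate 3 (-1.20) and highest on LDM in Cy3 replicate 3 (0.80). The part of these differences in the values below was not tested.

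The 36 genes with no probe matched were flp-1, flp-16, flp-25, flp-28 and flp-33 among the flp genes, 16 ins genes and 15 nlp genes. Of the 107, the probe of 84 genes (78.5%) exceeded its local background by more than 2 background SD in both channels on all 6 arrays. By family this held for 23 of 26 flp genes, 14 of 23 ins genes, 43 of 53 nlp genes and 4 of 5 processing and release genes. It held for 50.4% of all 22490 gene probes. These shares differ in unit, as each of the 107 genes was represented by its tested probe or else by its probe of highest mean intensity. The number above background on a single array lay between 87 and 90 with the LDM in Cy5 and between 94 and 98 with the LDM in Cy3. A gene was tested where at least 2 spots were unmarked in each dye orientation. This left 73 genes, namely 23 flp, 9 ins, 37 nlp and 4 processing genes, of which 64 were unmarked on all 6 arrays and 9 on 5. The ins family was thus the least completely measured, with 9 of 39 genes tested.

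**Figure D1:**
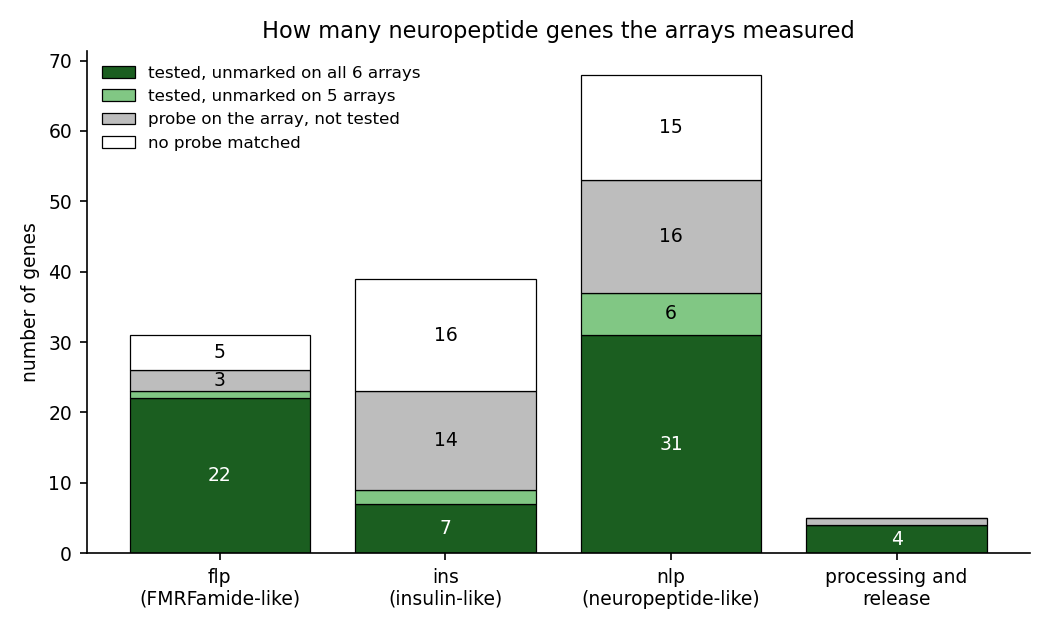
Number of genes (vertical axis) in each family, split into genes tested with unmarked spots on all 6 arrays, tested on 5 arrays, present on the array but not tested, and without a matched probe. The flp and nlp families were mostly measured (23 of 31 and 37 of 68 tested), whereas 9 of 39 ins genes were tested.

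With the LDM, 0 of the 73 tested genes passed limma's test in either direction (adjusted p under 0.05, which 0.313% of all genes passed as higher and 0.0626% as lower). At an unadjusted p under 0.05, 6 genes had ratios above 0 and 7 below 0. Over all genes tested, 4.39% were above and 4.92% below by the same rule. By the rank product of the methods, at a percentage of false positives under 0.05, 0 of the 73 were higher and 1, nlp-4, was lower (1.34% and 0.476% of all genes). Of the 64 genes unmarked on all 6 arrays, ins-18 was above 0 on every array and nlp-4, nlp-21 and nlp-51 were below 0 on every array. Among all genes with 6 unmarked spots these shares were 2.42% above and 3.25% below. The median log2 ratio of the 73 genes was 0.03, with values from -1.13 to 0.81, and that of all genes was -0.03. By family the medians were -0.02 for flp, -0.10 for ins, 0.10 for nlp and 0.26 for the processing genes.

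**Figure D2:**
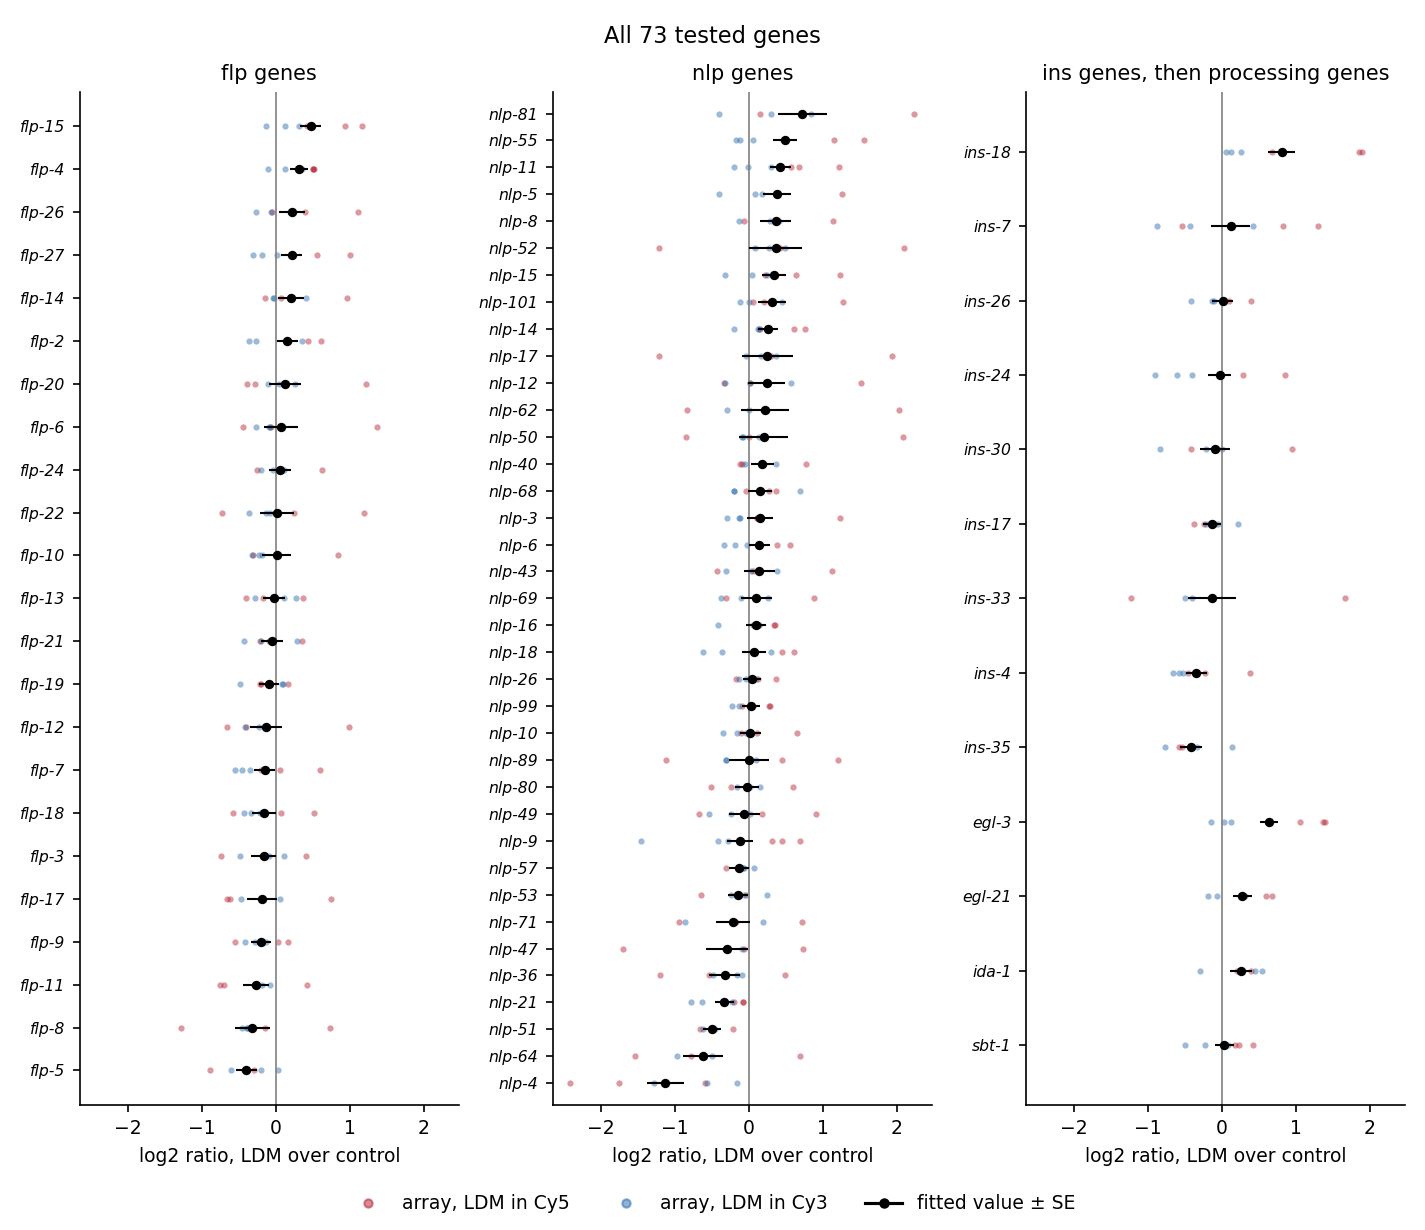
Log2 ratio of LDM over control (horizontal axis) of the 73 tested genes, with the fitted value ± SE in black and each array as a colored point (red, LDM in Cy5; blue, LDM in Cy3). Fitted values run from -1.13 (nlp-4) to 0.81 (ins-18), and in most rows the spread over the arrays is wider than the distance of the fitted value from 0.

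The processing and release genes were examined first. egl-3 (C51E3.7), the convertase, had log2 ratios of 1.36, 1.39 and 1.05 on the arrays with the LDM in Cy5 and of -0.15, 0.03 and 0.12 on those with the LDM in Cy3. The orientations did not overlap, and the ratios above 1 were all with the LDM in Cy5. Its fitted log2 ratio was 0.63 ± 0.12 (SE, n = 6, above 0 on 5 of 6 arrays), with a dye effect of the same size, 0.63, and it did not pass (limma adjusted p = 0.134). Leaving out single arrays gave values between 0.60 and 0.69. A second probe for egl-3 had log2 ratios of -0.23, 0.76 and -0.46 with the LDM in Cy5 and of -0.09, 0.26 and 0.03 with the LDM in Cy3, with a mean of 0.04. The probes of egl-3 thus gave different values, and the mean of both had a fitted log2 ratio of 0.34 (limma adjusted p = 0.51). Over all alternatives the adjusted p of egl-3 ran from 0.00122, with array weights estimated gene by gene, to 0.726. With all 6 arrays and no array weights it ran from 0.0662 to 0.551.

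egl-21, the carboxypeptidase, had log2 ratios of 0.68, 0.59 and 0.31 with the LDM in Cy5 and of -0.19, 0.30 and -0.07 with the LDM in Cy3. Its fitted value was 0.27 ± 0.13 (SE, n = 6; 95% interval from -0.03 to 0.57). ida-1, of the vesicle membrane, was above 0 on 5 of 6 arrays, from -0.30 on LDM in Cy3 replicate 1 to 0.54 on LDM in Cy3 replicate 2, with a fitted value of 0.25 ± 0.15 (SE, n = 6; 95% interval from -0.09 to 0.60). Its dye effect was 0.03, so that it read alike in both orientations. sbt-1, the chaperone of EGL-3, ranged from -0.50 to 0.42 and had a fitted value of 0.03 ± 0.13 (SE, n = 6; 95% interval from -0.27 to 0.32). Neither egl-21, ida-1 nor sbt-1 passed the test (limma adjusted p = 0.574, 0.667 and 0.977), and sbt-1 was below 0 under scale normalization of the ratios (-0.04). All 4 genes were above 0 on each array with the LDM in Cy5 and below 0 on LDM in Cy3 replicate 1. unc-31, which encodes the release factor, was unmarked on 1 of 6 arrays and was not tested. Its probe was above background on 3 arrays, and with marked spots kept its ratios ran from -0.47 to 0.45.

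Among the insulin-like genes, ins-18 (T28B8.2) stood above the other 8 tested. INS-18 is known as an antagonist of DAF-2 signaling. Its log2 ratios were 1.89, 0.67 and 1.86 with the LDM in Cy5 and 0.06, 0.26 and 0.12 with the LDM in Cy3. All 6 were above 0, and every array with the LDM in Cy5 was above every array with it in Cy3. The fitted value was 0.81 ± 0.18 (SE, n = 6), a ratio of 1.75, which did not pass (limma adjusted p = 0.212; percentage of false positives 0.147). Without LDM in Cy5 replicate 2 the value was 1.01 and passed (limma adjusted p = 0.013). In that fit 43 of all genes passed as higher, against 25 with all 6 arrays. Over all alternatives the adjusted p lay between 0.000439, with array weights estimated gene by gene, and 0.822. With all 6 arrays and no array weights it lay between 0.201 and 0.516.

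ins-4, whose product is known as a DAF-2 agonist, had log2 ratios of -0.23, -0.46 and 0.38 with the LDM in Cy5 and of -0.67, -0.59 and -0.52 with the LDM in Cy3. All but LDM in Cy5 replicate 3 were below 0, and the fitted value was -0.35 ± 0.14 (SE, n = 6; limma adjusted p = 0.512). ins-35 was below 0 on all arrays except LDM in Cy3 replicate 1, with ratios from -0.77 to 0.13 and a fitted value of -0.42 ± 0.15 (SE, n = 6; limma adjusted p = 0.431). ins-7, another agonist of DAF-2, spread from -0.88 on LDM in Cy3 replicate 2 to 1.29 on LDM in Cy5 replicate 3, with a fitted value of 0.11 ± 0.27 (SE, n = 6). The direction of ins-7 turned under scale normalization (-0.07). ins-33 was at 1.67 on LDM in Cy5 replicate 3 and between -1.23 and -0.15 on the other 5 arrays. ins-30 and ins-17 had fitted values of -0.10 and -0.13, with ratios above 0 on 1 array each. ins-24 and ins-26, measured on 5 arrays, were above 0 on both measured arrays with the LDM in Cy5 and below 0 on all 3 with it in Cy3, and their fitted values were -0.03 and 0.01.

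Of the 14 ins genes with a probe but too few unmarked spots, 5 (ins-3, ins-5, ins-6, ins-11 and ins-22) were above background in both channels on all 6 arrays. With marked spots kept, the mean log2 ratios of these 14 ran from -0.43 for ins-5 to 0.19 for ins-3. ins-1, which like ins-18 antagonizes DAF-2 signaling, was above background on 0 of 6 arrays in both channels.

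The flp family had 11 genes with fitted values above 0 and 12 below 0, from -0.40 to 0.47. flp-15, which encodes ligands of the receptor NPR-3, had log2 ratios of 0.94, 0.42 and 1.16 with the LDM in Cy5 and of -0.13, 0.13 and 0.30 with the LDM in Cy3. Its orientations did not overlap, and its fitted value was 0.47 ± 0.14 (SE, n = 6; limma adjusted p = 0.377). flp-4 was nearly constant with the LDM in Cy5, at 0.51, 0.51 and 0.50, and was at -0.10, 0.35 and 0.13 with the LDM in Cy3. Its fitted value was 0.32 ± 0.12 (SE, n = 6; limma adjusted p = 0.467). flp-5 was below 0 on 5 of 6 arrays, at -0.90, -0.29 and -0.43 with the LDM in Cy5 and -0.20, 0.03 and -0.60 with the LDM in Cy3. Its fitted value was -0.40 ± 0.14 (SE, n = 6; limma adjusted p = 0.443).

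flp-11, whose peptides are released by the RIS neuron during sleep, had a fitted value of -0.27 ± 0.18 (SE, n = 6). It was above 0 only on LDM in Cy5 replicate 2, and all 3 of its probes were below 0 on average (-0.27, -0.19 and -0.29). flp-13, which acts in stress-induced sleep, was at -0.02 ± 0.15 (SE, n = 6), and flp-18 and flp-21, which encode ligands of the receptor NPR-1, were at -0.16 and -0.05. flp-8 was lowest on LDM in Cy5 replicate 2 (-1.28) and highest on LDM in Cy5 replicate 3 (0.73), and was between -0.45 and -0.15 on the other 4 arrays. flp-26 and flp-27 both had fitted values of 0.22, with ratios of 1.11 and 1.01 on LDM in Cy5 replicate 3, and flp-9 had a fitted value of -0.20. flp-23, flp-32 and flp-34 were not tested. Of these, flp-34 was above background on all 6 arrays, with a mean of -0.17 when marked spots were kept.

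In the nlp family, 24 genes had fitted values above 0 and 13 below 0. nlp-4 (F59C6.6) had the lowest fitted value of all 73 genes. Its log2 ratios were -1.76, -2.42 and -0.60 with the LDM in Cy5 and -0.16, -1.28 and -0.57 with the LDM in Cy3. All 6 were below 0, the orientations overlapped, and the 3 strongest were LDM in Cy5 replicates 1 and 2 and LDM in Cy3 replicate 2. The fitted value was -1.13 ± 0.25 (SE, n = 6), a ratio of 0.456, which did not pass limma (adjusted p = 0.196). By rank product nlp-4 was lower (percentage of false positives 0.005), and with each array left out in turn this lay between 0.00125 and 0.0464, so that nlp-4 stayed under 0.05 in all 6 of these repeats. In limma, leaving out LDM in Cy5 replicate 3 gave -1.38 and passed (adjusted p = 0.0333). In that fit 16 of all genes passed as lower, against 5 with all 6 arrays. Over all alternatives the adjusted p ran from 0.00123, with array weights estimated gene by gene, to 0.775. With all 6 arrays and no array weights it ran from 0.108 to 0.261.

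nlp-51 had the least variable ratios among the genes at an unadjusted p under 0.05, with an SD of 0.154. It was at -0.66, -0.52 and -0.22 with the LDM in Cy5 and at -0.46, -0.62 and -0.50 with the LDM in Cy3. All 6 arrays read below 0 and both orientations had near equal means, -0.47 and -0.52. The fitted value was -0.50 ± 0.12 (SE, n = 6), a ratio of 0.709, with a limma adjusted p of 0.231. nlp-21 was at -0.21, -0.08 and -0.09 with the LDM in Cy5 and at -0.64, -0.22 and -0.79 with the LDM in Cy3. Its fitted value was -0.34 ± 0.13 (SE, n = 6; limma adjusted p = 0.463). Its 3 probes averaged -0.34, -0.44 and -0.14, and the second was also below 0 on all 6 arrays, whereas the third was above 0 on LDM in Cy5 replicates 2 and 3. nlp-64 was at -0.79, -1.55 and 0.69 with the LDM in Cy5 and at -0.97, -0.50 and -0.61 with the LDM in Cy3. All arrays but LDM in Cy5 replicate 3 were thus at -0.50 or below, and the fitted value was -0.62 ± 0.27 (SE, n = 6; limma adjusted p = 0.533).

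Above 0, nlp-55 was at 1.16, 0.47 and 1.55 with the LDM in Cy5 and at -0.17, 0.05 and -0.12 with the LDM in Cy3. Its fitted value was 0.49 ± 0.16 (SE, n = 6; limma adjusted p = 0.409). nlp-11 was at 1.21, 0.57 and 0.68 with the LDM in Cy5 and at -0.21, 0.29 and -0.02 with the LDM in Cy3. Its fitted value was 0.42 ± 0.14 (SE, n = 6; limma adjusted p = 0.419). For both genes the orientations did not overlap and the arrays with the LDM in Cy3 lay around 0. nlp-15 had a fitted value of 0.34 ± 0.16 (SE, n = 6) and was above 0 on 5 of 6 arrays. nlp-52 had 0.36 ± 0.37 (SE, n = 6), with -1.22 on LDM in Cy5 replicate 2 as its lowest ratio and 2.10 on LDM in Cy5 replicate 3 as its highest. nlp-81, measured on 5 arrays, had the highest fitted nlp value, 0.72 ± 0.33 (SE, n = 5), which rested on 2.24 on LDM in Cy5 replicate 3. The rule for naming genes asks for unmarked spots on all 6 arrays at the ends of a family, so nlp-81 lies outside it and is named for that value.

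Among other nlp genes with known roles, nlp-8 and nlp-14, whose products promote sleep from the ALA neuron, had fitted values of 0.36 ± 0.21 (SE, n = 5) and 0.26 ± 0.13 (SE, n = 6). nlp-40, which is released by the intestine and times defecation, was at 0.18 ± 0.16 (SE, n = 6). nlp-12, which encodes cholecystokinin-like peptides of the DVA neuron, was at 0.24 ± 0.25 (SE, n = 6). nlp-3, one of the peptides of the egg-laying HSN neurons, was at 0.15 ± 0.17 (SE, n = 6). These genes were singled out for their roles, and none had an unadjusted p under 0.05 in limma. nlp-22, which promotes sleep in larvae, was above background on 0 of 6 arrays. Of the 16 nlp genes with a probe that were not tested, 6 were above background on all arrays (nlp-1, nlp-7, nlp-19, nlp-45, nlp-61 and nlp-67). With marked spots kept, the mean ratios of these 6 lay between -0.22 (nlp-7) and 0.19 (nlp-19).

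**Figure D3:**
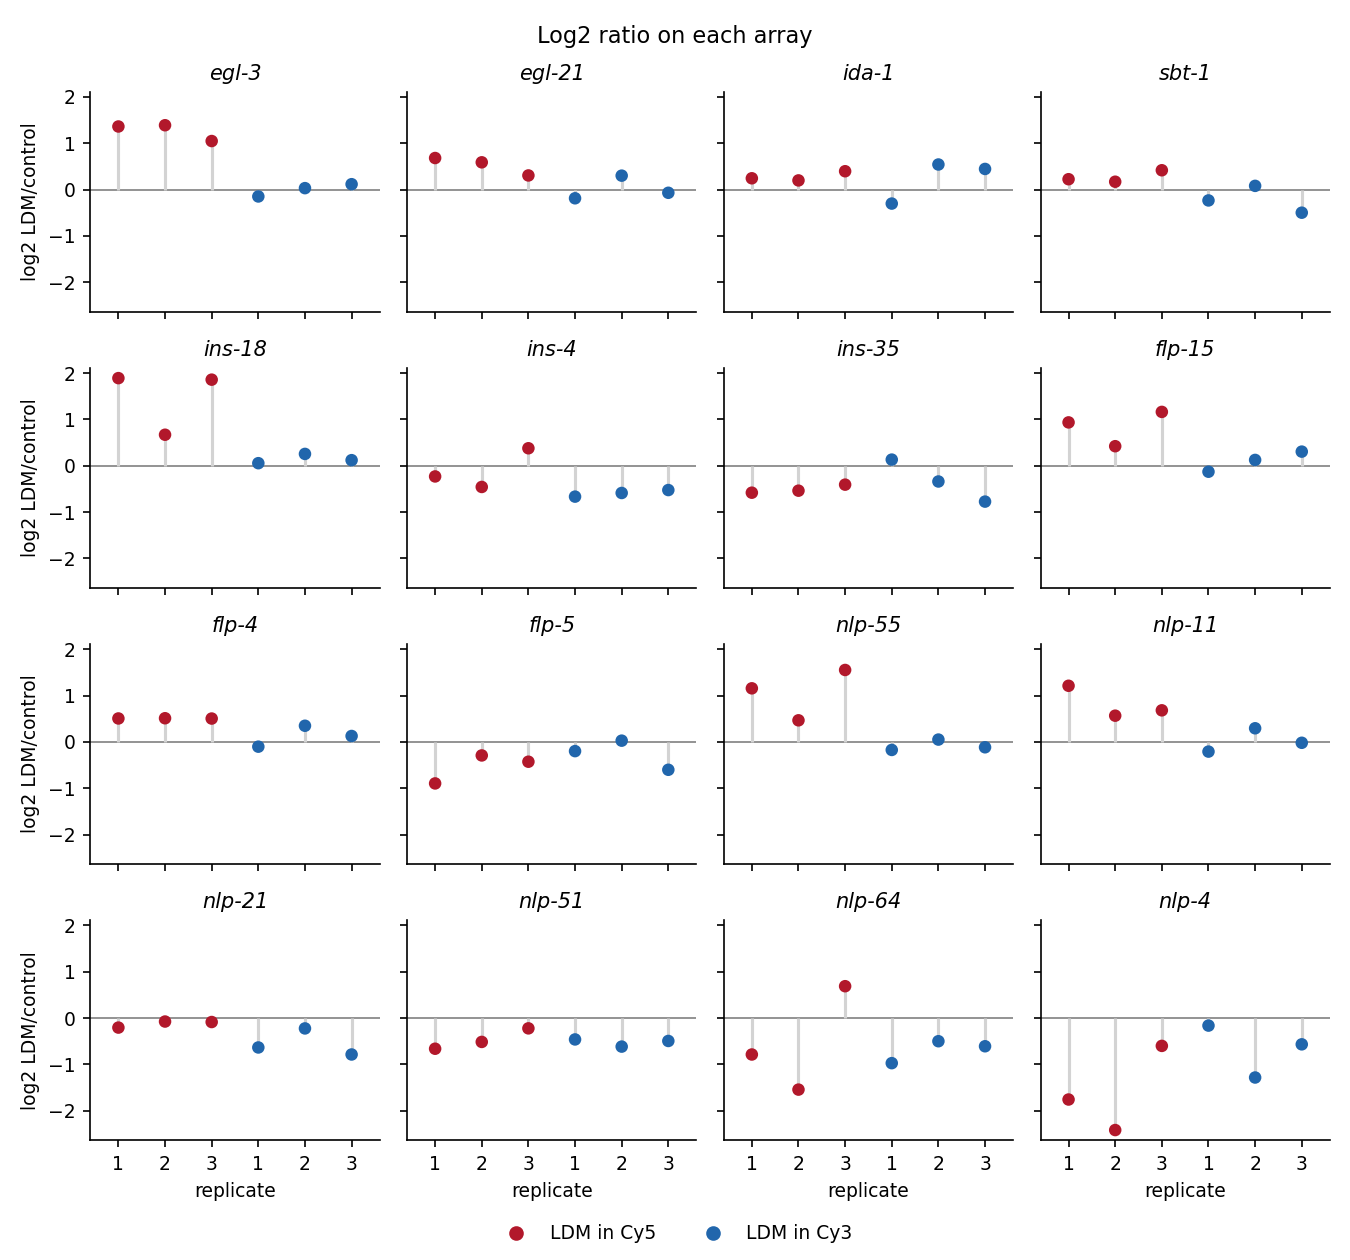
Log2 ratio of LDM over control (vertical axis) on each of the 6 arrays (horizontal axis, replicates 1 to 3 with the LDM in Cy5 in red and 1 to 3 with it in Cy3 in blue) for the tested processing genes and the genes with an unadjusted p under 0.05. ins-18 is above 0 on all 6 arrays, nlp-4, nlp-21 and nlp-51 are below 0 on all 6, and egl-3, nlp-55 and nlp-11 are high with the LDM in Cy5 and near 0 with it in Cy3.

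For most of the peptide and processing genes the mean ratio was higher with the LDM in Cy5. The share of such genes was lower without LDM in Cy5 replicate 3, and no other array was left out for this count. That array held the highest median of these genes (0.59). A lower share without it thus follows from which array was left out and is no independent result. The 4 processing genes did not depend on that array, with medians of 0.46, 0.39 and 0.41 on the arrays with the LDM in Cy5. The dye effect, which is positive where ratios were higher with the LDM in Cy5, was above 0 for 61 of the 73 genes, against 48.9% of all genes. Its median was 0.18, against -0.01 over all genes. The medians of the orientation means were 0.23 with the LDM in Cy5 and -0.10 with the LDM in Cy3, whereas over all genes they were -0.02 and -0.02. By array, the medians of the peptide and processing genes were 0.03, -0.08 and 0.59 with the LDM in Cy5 and -0.20, -0.0018 and -0.21 with the LDM in Cy3, so that LDM in Cy5 replicate 2 lay below LDM in Cy3 replicate 2. Without LDM in Cy5 replicate 3, the dye effect was above 0 for 34 of 66 genes (51.5%, against 45.3% of all genes) and its median was 0.0073, against -0.02 over all genes. Every array with the LDM in Cy5 was above every array with it in Cy3 for 19 genes (26.0%, against 8.71% of all genes), among them egl-3, egl-21, ins-18, flp-15, nlp-55 and nlp-11. The reverse held for 1 gene. At an unadjusted p under 0.05, 8 genes had a dye effect in limma, against 6.13% of all genes, and 0 passed after adjustment. Of the 6 genes with a ratio above 0 at an unadjusted p under 0.05, all 6 had a dye effect above 0.19, so that their fitted ratios were larger than their means on the arrays with the LDM in Cy3. nlp-51 (0.03) and ida-1 (0.03) had dye effects near 0. Genes with ratios of opposite sign in the orientations, above 0 on each measured array in Cy5 and below 0 on each in Cy3, were nlp-3, nlp-6, nlp-9, ins-24 and ins-26 (5 of 73, or 6.85%, against 2.83% of all genes). The other way round there were 0, against 2.08% of all genes. nlp-9 had 0.31, 0.69 and 0.45 with the LDM in Cy5 and -0.29, -0.42 and -1.46 with the LDM in Cy3. The arrays with the LDM in Cy5 were also the dimmer ones, so that dye orientation and array brightness cannot be told apart here.

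**Figure D4:**
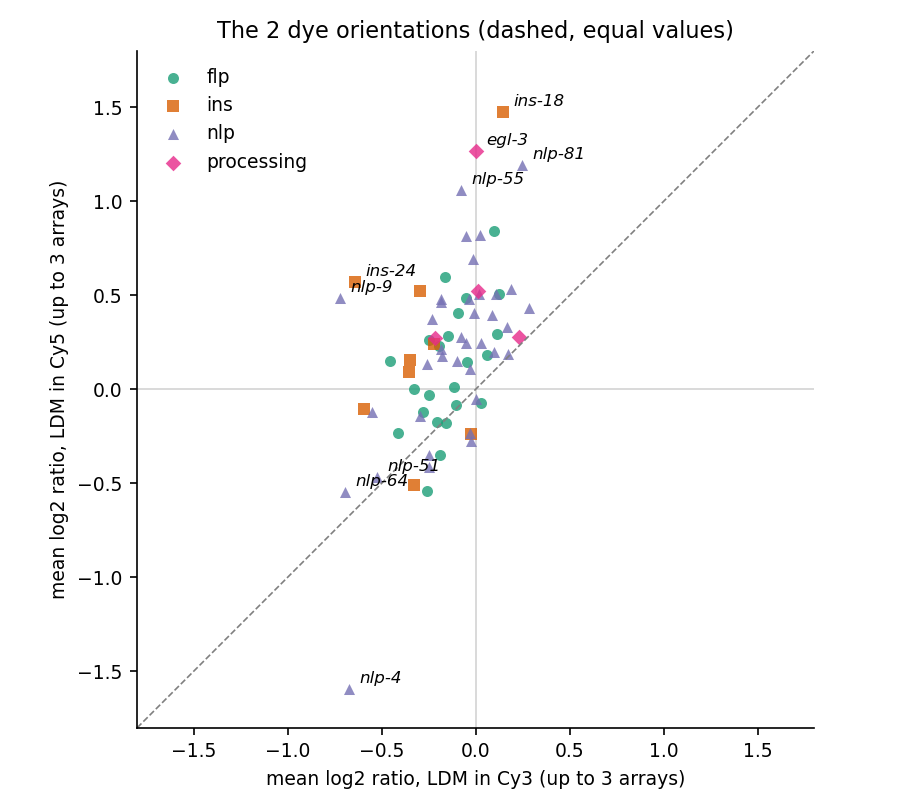
Mean log2 ratio of the 73 tested genes on the arrays with the LDM in Cy5 (vertical axis) against the mean on the arrays with the LDM in Cy3 (horizontal axis), by family. Most points (61 of 73) lie above the dashed line of equal values (34 of 66 had a dye effect above 0 without LDM in Cy5 replicate 3), and ins-18 and egl-3 lie near 1.47 and 1.27 on the vertical axis but near 0 on the horizontal one.

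One array, LDM in Cy5 replicate 3, read high for most of the peptide genes. On it the median log2 ratio of the peptide and processing genes was 0.59, with 56 of 71 genes above 0 (78.9%) and 39 above 0.5 (54.9%). Over all genes on that array, the median was -0.04 and 26.4% were above 0.5. Medians on the other 5 arrays ranged from -0.21 to 0.03. Against the mean of the other arrays, LDM in Cy5 replicate 3 was higher by more than 1 on the log2 scale for 26 of 71 genes (36.6%, against 17.2% of all genes) and lower by more than 1 for 0 genes (7.74% of all genes). The widest differences were those of nlp-50 (2.08 against -0.18), nlp-62 (2.03 against -0.14), ins-33 (1.67 against -0.49) and nlp-52 (2.10 against 0.01). flp, ins and nlp genes shared this, with medians on that array of 0.59, 0.38 and 0.68. The 4 processing genes did not stand apart there, at a median of 0.41 beside 0.46 and 0.39 on the other arrays with the LDM in Cy5. Neuron markers, of which 12 of 17 were tested, had a median of 0.12 on LDM in Cy5 replicate 3, with values from -1.16 to 1.04. Their medians lay between -0.17 and 0.24 on the other arrays. On LDM in Cy5 replicate 3, medians of other markers were -0.70 for body wall muscle, -0.84 for germline (4 genes) and -1.20 for sperm. They were -0.57 for epidermis and molting, -2.37 for vitellogenins and -0.09 for intestine. The part of these markers in the values of the peptide genes was not tested.

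Without LDM in Cy5 replicate 3, the median of the tested genes was -0.09. limma then gave 8 genes above and 13 below 0 at an unadjusted p under 0.05, with 1 gene, nlp-4, passing as lower. Over all genes, 25 then passed as higher and 16 as lower, against 25 and 5 with all 6 arrays. Without LDM in Cy5 replicate 2, the median was 0.10, 9 genes were above and 6 below, and 1 gene, ins-18, passed as higher. Over all genes, 43 then passed as higher and 8 as lower. Shares of all genes at an unadjusted p under 0.05 are not given here for these fits. Leaving out either array thus moved the median in opposite directions. Between them, 29 of 69 genes (42.0%) were over 1 log2 unit higher on replicate 3, against 23.3% of all genes, and 5 (7.25%) were over 1 unit higher on replicate 2, against 15.1% of all genes. On LDM in Cy3 replicate 1, 10 of 73 genes (13.7%) were above 0, against 49.1% of all genes, and the median was -0.20 with an interquartile range of 0.25, against 0.29 over all genes. The control extracts of LDM in Cy5 replicate 3 and LDM in Cy3 replicate 1 carry the same code. These arrays correlated at r = -0.03 over 71 of the tested genes. LDM in Cy5 replicate 3 correlated at r = 0.65 with LDM in Cy3 replicate 3 and at 0.11 with LDM in Cy3 replicate 2. With LDM in Cy5 replicates 1 and 2 it correlated at 0.48 and -0.26.

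**Figure D5:**
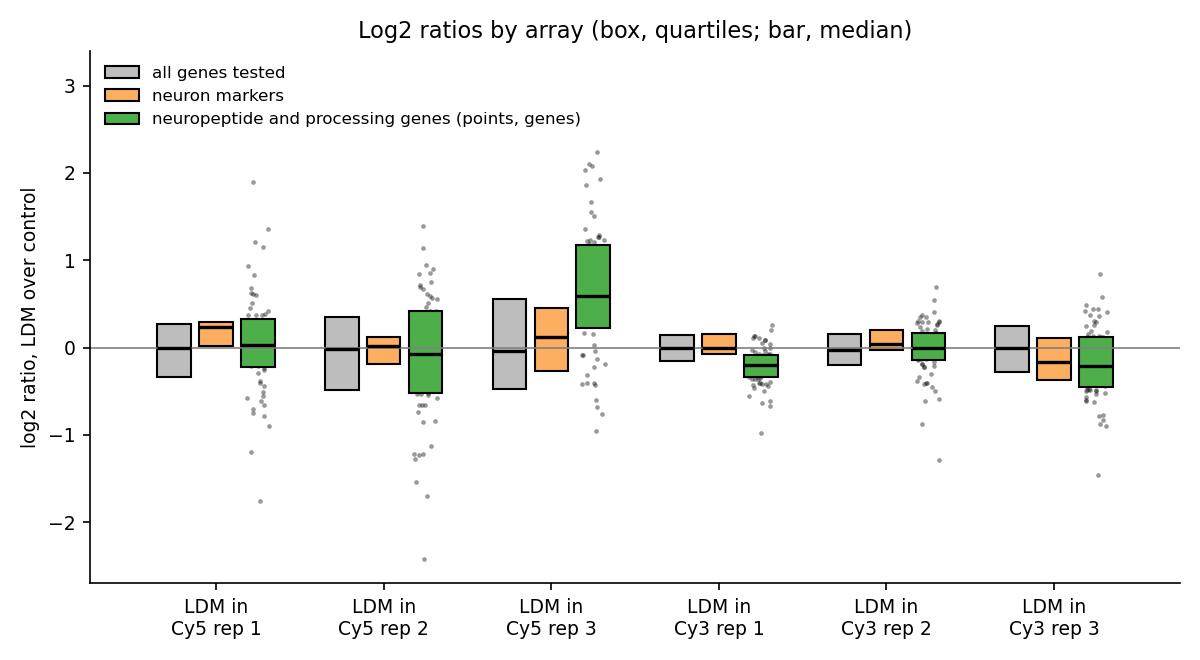
Log2 ratio of LDM over control (vertical axis) on each array (horizontal axis) for all genes tested, for the neuron markers and for the peptide and processing genes, with boxes from the lower to the upper quartile, bars at the median and points for single peptide or processing genes. The peptide genes are centered on 0.59 on LDM in Cy5 replicate 3 and between -0.21 and 0.03 on the others, whereas the medians of all genes stay between -0.04 and 0.

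Further genes of the pathway were taken from lists of peptides outside the naming rule, other processing and vesicle genes, receptors, and neprilysins, the proteases that degrade peptides outside cells. Of 31 tested genes on these lists, 0 passed limma in either direction, 2 had an unadjusted p under 0.05 (both below 0), and 1 passed the rank product. Over all genes, 0.313% passed limma as higher and 0.0626% as lower. At an unadjusted p under 0.05 these shares were 4.39% above and 4.92% below 0, and by rank product 1.34% higher and 0.476% lower. snet-1, which encodes a peptide of olfactory plasticity that the neprilysin NEP-2 is thought to degrade, had log2 ratios of -1.04, -0.65 and -0.22 with the LDM in Cy5 and of -0.28, -0.22 and -0.82 with the LDM in Cy3. pdf-1, which encodes pigment-dispersing factor peptides that promote roaming, had ratios of -1.07, -0.24 and -0.40 with the LDM in Cy5 and of -0.13, -0.01 and -0.27 with the LDM in Cy3. Both genes were below 0 on all 6 arrays, with fitted values of -0.54 ± 0.16 and -0.35 ± 0.15 (SE, n = 6; limma adjusted p = 0.347 and 0.512). pdf-2 and daf-28, the latter an insulin-like agonist of DAF-2, had fitted values of 0.28 ± 0.26 (SE, n = 6) and 0.12 ± 0.20 (SE, n = 5).

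Of 18 other processing and vesicle genes, 12 were tested, with fitted values from -0.15 to 0.17 and a median of 0.00069. The amidating enzymes pghm-1 and pgal-1 were at 0.17 ± 0.13 and 0.13 ± 0.12 (SE, n = 6), cpd-1, a carboxypeptidase D homolog, at 0.13 ± 0.13 (SE, n = 6), and hid-1, which acts in dense core vesicle formation, at -0.15 ± 0.14 (SE, n = 5). pgal-1 and cpd-1 were above 0 on all 3 arrays with the LDM in Cy5 and below 0 on all 3 with it in Cy3, and both were just below 0 under scale normalization of the ratios (-0.0014 and -0.011).

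Receptors were hardly measured, with 9 tested, and neprilysins likewise, with 5 of 26. dmsr-1, a receptor for FMRFamide-like peptides, had a fitted value of 0.37 ± 0.20 (SE, n = 5), which rested on 1.43 on LDM in Cy5 replicate 1 beside values from -0.14 to 0.19 elsewhere. npr-41, npr-6 and frpr-11, of the peptide receptor families, were at -0.49, -0.26 and 0.35. dmsr-7 was the gene that passed the rank product, as higher (percentage of false positives 0.0213). Its ratios were -2.24, -3.07 and -0.81 with the LDM in Cy5 and 0.70, 3.58 and 2.45 with the LDM in Cy3, so that its fitted value was 0.10 ± 0.40 (SE, n = 6) with a dye effect of -2.14. It lies outside the rule for named genes. The neprilysin genes nep-12, nep-11, nep-1 and nep-21 had fitted values between -0.18 and 0.17.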

How the data were processed

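For each spot the authors deposited Cy3 and Cy5 foreground and background intensity as read by the scanner software, not normalized. The deposited series table holds the authors' log2 ratios of LDM over control after loess and Aquantile in limma, and was used as an alternative (r of 0.974 to 0.991 with the ratios computed here, column medians from -0.00762 to 0.000949). Ratios were computed in limma 3.58.1 (R 4.3.3) with normexp (offset 50), loess over unmarked gene spots, and Aquantile, and turned to LDM over control. Spots that the image software had marked (any value other than 3) were excluded. The meaning of the marks is not given in the sources used here. Where a gene had several tested probes, that of highest mean intensity stood for it in limma. The scanner output as deposited also gives the percent of saturated pixels in a spot. Among the probes standing for the 107 members with a probe, it was above 0 only at nlp-26 and nlp-36 (up to 51%). It was not examined for the other genes described. Symbols came from RefSeq's table of genes for WBcel235, joined on the sequence name of the probe (95.1% of 22490 gene probes matched). All 101 probes of the genes described that the platform annotation also names had the same gene there. The genome build of the array is not given in the sources used here.

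The fit in limma held an LDM effect and a dye effect over all 6 arrays, with Benjamini-Hochberg adjustment over 7989 genes. Its p-values measure the spread between these 6 arrays, which were treated as independent. The fit was also run on simulated data, with planted changes larger than those fitted for the members and with noise independent between arrays. That run does not cover changes of the size described here. The methods' rank product was rewritten for this purpose (100 permutations). For a gene with several tested probes it took the lowest percentage of false positives among them, separately for each direction. Alternatives were other background corrections and normalizations, keeping marked spots, leaving out dim probes or the dye term, the authors' ratios, a replicate block, array weights, the mean of a gene's probes, and each array left out. Members, gene lists and the rule for naming genes were chosen with earlier results of these data known. Named are the processing genes, genes at an unadjusted p under 0.05 or with 1 direction on all 6 arrays, up to 4 at each end of each family among genes unmarked on all 6 arrays, and up to 4 of each pathway list by p. Other genes, such as flp-13, flp-18, flp-21, nlp-9, nlp-50 and nlp-62, are named for a known role or for values seen on single arrays. Further markers were of neurons (median log2 ratio 0.01), intestine (0.06), epidermis and molting (-0.25, with 4 of 9 genes below 0 at an unadjusted p under 0.05), muscle (-0.06), sperm (-0.30), germline (0.01) and vitellogenins (-1.09, with 4 of 5 lower by rank product). The number of arrays limits the precision.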

Additional observations from a re-analysis of the deposited data

Results flagged for a closer look

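In 7 of 48 sets of values examined, a single array lay far from the rest. About 1 in 20 such sets would by chance, but the sets share the same arrays and some hold others. The count of 7 thus cannot be read as an excess over chance. The log2 ratio of ins-33 was 1.67 on LDM in Cy5 replicate 3. pdf-1 was at -1.07 and dmsr-1 at 1.43 on LDM in Cy5 replicate 1. The median log2 ratio on LDM in Cy5 replicate 3 stood apart for all tested members (0.59) and for the flp (0.59), ins (0.38) and nlp genes (0.68), sets of which the first holds the other 3.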

How the results depend on the processing

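Among alternatives that keep all 6 arrays, and with the gene-by-gene array weights set aside, 0 of the tested members passed limma in either direction under every one, 4 to 7 had ratios above 0 and 5 to 7 below 0 at an unadjusted p under 0.05, and the median stayed between -0.04 and 0.05. Over all genes, the count lower was 3 with print-tip loess, 9 with scaled ratios and 3 with marked spots kept. The rank product placed 107 genes higher and 38 lower, 1 member among the latter. Array weights by restricted maximum likelihood did not converge, so weights estimated gene by gene were added after seeing the data. They gave 629 genes higher and 921 lower, 8 members higher and 10 lower by adjusted p, and 14 and 16 by unadjusted p; the cause was not tested. Ratios changed sign under scaling for sbt-1 (-0.039), ins-7 (-0.068), pgal-1 (-0.0014) and cpd-1 (-0.011), and under these weights for cpd-1 (-0.030) and nep-1 (0.17).

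With arrays left out in turn, genes higher numbered 5 to 43 and genes lower 0 to 16, members passing by adjusted p 0 to 1 in each direction, and members at an unadjusted p under 0.05 were 3 to 9 above and 2 to 13 below 0. The count above was 3 when either LDM in Cy5 replicate 1 or LDM in Cy3 replicate 2 was dropped. Below 0, dropping LDM in Cy5 replicate 3 gave 13, dropping LDM in Cy3 replicate 1 gave 3, replicate 2 of that orientation 4, and replicate 3 of it 2, as did LDM in Cy5 replicate 1. Values spanned -0.048 to 0.097 for sbt-1, -0.077 to 0.38 for ins-7, -0.30 to 0.045 for ins-30, -0.52 to 0.20 for ins-33, -0.058 to 0.77 for nlp-52, -0.29 to 0.085 for nep-1 and -0.17 to 0.052 for nep-21. Same-numbered arrays of the orientations correlated at -0.03, 0.41 and 0.23 in their deviations. The fit in limma did not pair arrays by number. Over all genes, LDM in Cy5 replicate 2 correlated at r = 0.32 with LDM in Cy3 replicate 2. LDM in Cy5 replicate 3 correlated at 0.23 with LDM in Cy3 replicate 3. Each was the highest value of that array across the orientations. LDM in Cy5 replicate 1 was at 0.11 with LDM in Cy3 replicate 1 and at 0.23 with LDM in Cy3 replicate 3. Whether the numbers pair arrays is thus not settled. With a replicate block, 26 genes were higher and 4 lower, and 0 members passed. The number of members above background was 87 at 1 and 78 at 3 background SD. Tested were 9 of 39 ins genes, 9 receptors and 5 of 26 neprilysins.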
